A study of Mus musculus with 12 samples.

Results

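The genes described here are the expressed ZFP genes of mouse bone marrow dendritic cells, that is, genes of C2H2 zinc finger proteins whose symbol is Zfp followed by digits. They were chosen by their mean level: a gene belongs to the group when at least 1 probe set of its own has a mean log2(signal + 16) of at least 6.4 over the 12 arrays, and the brightest such probe set stands for the gene. Zfp36, an RNA-binding protein of another finger type, was left out. Of 304 such genes with a probe set naming no other gene, 219 reached the minimum and 85 did not. The array reads 18193 genes in all by such a probe set, and 11074 of them were measured on a tested probe set.

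Dendritic cells were grown from C57BL/6 bone marrow in GM-CSF and given poly(I:C), a double-stranded RNA made by synthesis that stands in for a virus, and their transcripts were measured before it (0 h) and 1, 3, 6, 12 and 24 h after it. Each time has 2 arrays, 1 from each of 2 replicate experiments run and hybridized apart, and 1 mouse gave the cells of each experiment, so n = 2 at every time. The labels give 2.5 µg/ml poly(I:C), 10 ng/ml GM-CSF and 6 days of culture for every array, and the mouse age as 3 to 4 months in one field and 8 to 10 weeks in another. The methods give other concentrations of both agents, and state that the cells were selected for CD11c. Untreated cells were not measured past 0 h, so the time in culture and the poly(I:C) cannot be told apart.

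C2H2 zinc fingers are short loops held in shape by a zinc ion, and arrays of them read DNA sequence. In mice many ZFP proteins also carry a KRAB domain, which brings the co-repressor TRIM28 and, with it, histone methyltransferase, heterochromatin proteins and histone deacetylases to the bound site, where retroelements and some genes are kept silent. Other members bind RNA, take part in ribosome assembly or attach ubiquitin or SUMO to other proteins, and for most members no role in dendritic cells is given here.

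The start sites of 4 members named in the results below are shown: Zfp949, the member with the largest rise, and Zfp692, Zfp715 and Zfp672, which fell at 12 and 24 h. No call below rests on these sequences. Each is the 300 bases around a RefSeq transcript start in the build GRCm38.p6, 250 before it and 50 after, written 5′ to 3′ along the gene. They are chr9:88547770-88548069 (plus strand), chr11:58306819-58307118 (plus), chr7:43313251-43313550 (minus) and chr11:58330290-58330589 (minus, 1 of 3 starts of this gene). Capitals mark a searched motif, on either strand: ACTACAAT (the ZNF143 motif) in Zfp692, GCATGCGC (NRF1) in Zfp715 and CCGGAAGT (ETS) in Zfp672. The window of Zfp949 holds none of the searched motifs, and neither do the other windows of Zfp672, which are not shown.
Zfp949: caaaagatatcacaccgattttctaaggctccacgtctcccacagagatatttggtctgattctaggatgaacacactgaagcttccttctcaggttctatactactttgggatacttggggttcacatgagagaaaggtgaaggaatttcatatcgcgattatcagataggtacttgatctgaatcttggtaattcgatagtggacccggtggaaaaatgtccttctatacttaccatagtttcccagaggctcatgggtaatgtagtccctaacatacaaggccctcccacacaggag
Zfp692: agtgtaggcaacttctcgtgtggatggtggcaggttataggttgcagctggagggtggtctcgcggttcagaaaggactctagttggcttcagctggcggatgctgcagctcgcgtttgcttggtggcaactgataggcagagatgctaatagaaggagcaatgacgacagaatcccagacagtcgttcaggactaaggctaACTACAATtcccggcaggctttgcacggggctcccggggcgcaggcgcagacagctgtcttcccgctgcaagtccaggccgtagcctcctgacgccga
Zfp715: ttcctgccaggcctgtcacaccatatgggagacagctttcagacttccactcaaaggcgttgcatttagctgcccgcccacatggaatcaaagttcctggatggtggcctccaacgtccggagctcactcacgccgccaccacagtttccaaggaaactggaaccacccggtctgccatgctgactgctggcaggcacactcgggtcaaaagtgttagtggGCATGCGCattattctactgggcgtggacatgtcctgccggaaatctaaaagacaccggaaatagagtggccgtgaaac
Zfp672: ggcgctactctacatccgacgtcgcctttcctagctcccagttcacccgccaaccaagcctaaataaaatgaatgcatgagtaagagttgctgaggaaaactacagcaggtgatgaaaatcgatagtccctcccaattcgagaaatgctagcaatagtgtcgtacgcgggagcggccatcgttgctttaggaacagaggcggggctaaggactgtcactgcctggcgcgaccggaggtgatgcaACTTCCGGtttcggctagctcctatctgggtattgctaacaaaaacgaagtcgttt

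Of the 219 members, 180 had such windows, 224 in all, and they were searched on both strands for 8 motifs, none of which lies within another. The ETS motif was in 11.6% of the members' windows, against 5.15% of the 21262 windows of protein-coding genes. The ZNF143 motif was in 3.12% against 0.851%, NRF1 in 6.25% against 3.51%, AAGATGGC (YY1) in 4.02% against 3.05% and TGACGTCA (the cyclic AMP element) in 3.12% against 2.23%. CACGTG (the E-box) was in 5.80% of the members' windows, against 7.84% of the protein-coding ones. GAAANNGAA, the core of the interferon-stimulated response element, was in 6.70% against 8.14%, and TATAAA, the TATA box, in 5.80% against 12.6%. The windows of the members held a median of 16 CpG dinucleotides, against 13. Over all 32851 windows the shares were 3.89% (ETS), 0.737% (ZNF143), 2.71% (NRF1), 2.75% (YY1), 1.79% (cyclic AMP element), 7.15% (E-box), 8.56% (interferon core) and 13.6% (TATA). Among the members not called (172 windows), 11% held the ETS motif, 5.81% NRF1, 2.33% YY1 and 7.56% the interferon core. Among the members called lower at any time (39 windows), 12.8% held the ETS motif, 10.3% NRF1, 10.3% YY1 and 5.13% the interferon core. NRF1 and YY1 were in 4 of these windows each, and the 4 with YY1 came from 3 genes, as overlapping windows of Zfp809 share a match. Among those called higher (13 windows) 2 held the ETS motif, both overlapping windows of Zfp558 with the same match, 1 held YY1, and none held NRF1 or the interferon core. Each of these shares is a description of letters in a window, and factor binding was not measured.

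The values are MAS5.0 signals, the brightness of a probe set on a linear scale, and the median signal of an array was 70.9 to 91.4. Log2(signal + 16) was fitted with limma with terms for time and experiment, and calls of higher or lower rest on a Benjamini-Hochberg adjusted p under 0.05 over the 22722 probe sets tested. Differences are on this log2 scale, which understates the change of dim genes, and each comes with its standard error (SE). All times were set against the same 0 h arrays. Itgax, H2-Aa and Cd74, which mark dendritic cells, had signals of at least 16176, 16474 and 23216 on every array, and Ifit1, Rsad2, Cxcl10 and Il6, genes that poly(I:C) is known to induce, were called higher at 3, 6, 12 and 24 h. Of the markers of other cells, those of T, B, natural killer, mast and erythroid cells with a probe set of their own were all below the level minimum (Cd3e 11.4 to 60.1, Cd79a 4.93 to 56.4), as were S100a9, Mpo and Elane of neutrophils, while S100a8 lay between 1509 and 3401. Of the 3 macrophage markers, Adgre1 (2057 to 3740.4) and Csf1r (22071 to 32347) were not called at any time from 6 to 24 h, and Mertk (1143 to 6953) was called higher at 6, 12 and 24 h, at 2.17 ± 0.25 (SE) at 12 h. The part of macrophages in the results was not tested. In these bulk samples, fewer cells of a type and less RNA per cell cannot be told apart.

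The mean levels that chose the members spread from 6.401 to 12.30 with a median of 7.99, against a median of 8.64 for all probe sets tested. Just inside the minimum stood Zfp449 (6.401), Zfp235 (6.42) and Zfp583 (6.43), and just outside it Zfp605 (6.38), Zfp667 (6.35) and Zfp14 (6.35). The 5 brightest members were Zfp207, Zfp622, Zfp991, Zfp52 and Zfp91. Zfp207, which binds the spindle checkpoint protein BUB3, had signals of 3916 to 6393, and Zfp991 had 3152 to 4026. None of these 5 was called at any of the 5 times on its brightest probe set. Of the members, 70 had more than 1 tested probe set, and 13 are read by a probe set with an _x suffix and 7 by one with an _s suffix, whose probes can bind transcripts of related genes.

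No member was called at 1 or 3 h. In limma, 2 members at 1 h and 18 at 3 h had an unadjusted p under 0.05, 2 and 15 of them below 0 h. Over all probe sets tested, the share called at 1 h was 0.0528% for higher and 0.0% for lower, and that at 3 h 1.0% for higher and 0.044% for lower. The median log2 difference of the members was -0.06 at 1 h and -0.18 at 3 h, against -0.02 and -0.06 over all probe sets tested, and 70.8% of the members lay below 0 at 3 h, against 59% of all. At 3 h the median was below 0 in both experiments, at -0.21 in experiment 1 and -0.17 in experiment 2. Fitted on the 4 arrays of 3 h and 0 h alone, 2 members were called higher and 14 lower at 3 h. The count over all probe sets in that fit is not given here.

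**Figure D1:**
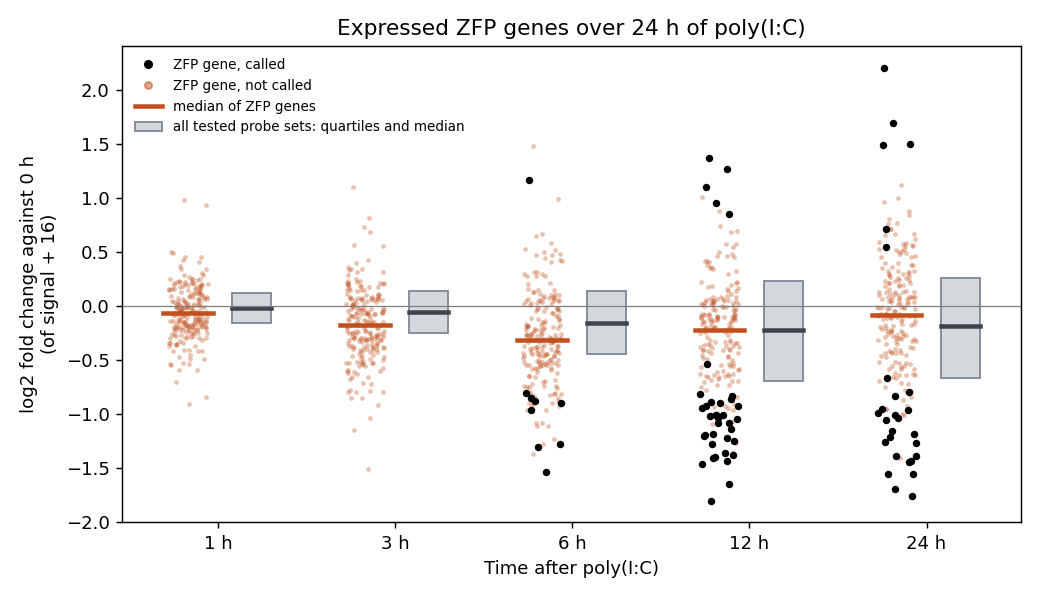
Log2 difference from 0 h (of signal + 16, vertical axis) of the 219 ZFP genes at each time, with 1 point per gene, black where called by limma, and the orange line their median; the grey box and dark line give the quartiles and median of all 22722 tested probe sets. The ZFP median was lowest at 6 h, at -0.31 against -0.16 for all, and stood at -0.09 against -0.18 at 24 h (0.04 against -0.05 with each array centred on its median).

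At 6 h, 8 members fell and 1 rose, 3.65% and 0.457% of the 219, against 1.9% lower and 3.58% higher of all probe sets tested. The median member lay at -0.31, against -0.16 over all, and 75.8% of the members were below 0, against 64.5%. The 4 largest falls were those of Zfp799, Zfp703, Zfp101 and Zfp931. Zfp703, a nuclear co-repressor whose human counterpart is amplified in luminal breast tumours, had signals of 1711, 1591, 813, 856, 847 and 1345 from 0 to 24 h in experiment 1 and 3979, 2759.8, 1672, 1284, 1162 and 1153 in experiment 2. Every array from 3 h on was thus below both 0 h arrays, and the difference was -1.30 ± 0.29 (SE) at 6 h (limma adjusted p = 0.029), -1.38 ± 0.29 at 12 h (0.0066) and -1.06 ± 0.29 at 24 h (0.023). The 24 h call was lost when experiment 2 lost its 0 h or its 24 h array, with a difference as small as -0.54, and with each array centred on its median, and the 12 h call when experiment 2 lost its 0 h or its 12 h array. Neither was called without the experiment as a term. Zfp799 had 45.8 and 65.1 at 6 h, against 206 and 173 at 0 h, a difference of -1.53 ± 0.38 (adjusted p = 0.044), and 104 to 110.5 at 12 h, where it was not called. Zfp931 had 565 and 384 at 6 h, against 1156 and 734 at 0 h (-0.96 ± 0.24, adjusted p = 0.043), and 926 and 896 at 24 h, within the range of its 0 h arrays.

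The single member to rise at 6 h was Zfp319, with 540.2 and 351 at 6 h, against 176 and 197 at 0 h (1.16 ± 0.29, adjusted p = 0.047). It was also higher at 12 h, with 487 and 454 (1.26 ± 0.29, adjusted p = 0.0098), and at 24 h the experiments parted, with 435 in experiment 1 and 213 in experiment 2. Its 2 other probe sets, both dim, lay at 1.70 and -0.06 at 6 h and were not called. Zfp472, the member that the study names, was lower at 6, 12 and 24 h, with differences of -0.90, -0.83 and -0.67 and signals of 240.4 and 243 at 6 h, against 543 and 395 at 0 h. Its calls (limma adjusted p = 0.04, 0.017 and 0.044) were all lost after quantile normalization and without the experiment as a term. Those at 6 and 24 h were also lost with each array centred on its median, and that at 24 h without any 1 of the 12 arrays. None of the 9 calls at 6 h was kept without each of the 12 arrays in turn, and the number of falls was 0 when either 0 h array or either 6 h array was left out, 1 without either 3 h array, 2 without either 12 h array and 30 without either 24 h array. With each array centred on its median 1 rose and 4 fell, and after quantile normalization 1 rose and 3 fell.

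At 12 h, 32 members fell and 5 rose, 14.6% and 2.28% of the 219, against 18.3% lower and 9.09% higher of all probe sets tested. Of these, 23 falls and 3 rises were at least 2-fold. All 37 calls had the same direction in both experiments, which a call at n = 2 nearly requires, so this is no separate support. The median member lay at -0.22, as did the median of all probe sets (-0.22), and 71.7% of the members were below 0, against 63.1% of all. Relative to the median of all probe sets tested, the median member stood at -0.003 as deposited and at 0.04 after quantile normalization. Over 11074 genes, each on its brightest probe set as the members are, 20.1% were lower and 10.4% higher at 12 h, with a median of -0.20.

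The fall at 12 h was clearest in Zfp101, Zfp326, Zfp692, Zfp715, Zfp608 and Zfp367, whose calls were kept without each of the 12 arrays. Zfp326, whose human counterpart joins RNA polymerase II to splicing in the DBIRD complex, had signals of 975, 787, 692, 486, 337 and 380 from 0 to 24 h in experiment 1 and 822, 774, 664, 526, 323 and 502 in experiment 2. The arrays of both experiments declined at every step up to 12 h, and the difference there was -1.40 ± 0.20 (SE, adjusted p = 0.00089). Zfp692, whose human counterpart was described as a repressor of gluconeogenic genes, had 151 and 141 at 12 h, against 429 and 431 at 0 h (-1.46 ± 0.24, adjusted p = 0.0018). Zfp101 had 103 and 94.2 at 12 h, against 485 and 302 at 0 h, the largest fall of a member at this time (-1.80 ± 0.29, adjusted p = 0.0015). Zfp715, whose start window above holds the NRF1 motif, had 636 and 468 at 12 h, against 1420.1 and 1143 at 0 h (-1.20 ± 0.20, adjusted p = 0.0021). Zfp608 had 336 and 209 at 12 h, against 983 and 538 at 0 h (-1.40 ± 0.26, adjusted p = 0.0033).

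Zfp704 and Zfp788 completed the 4 largest falls at 12 h with Zfp101 and Zfp692. Zfp704 had 219 and 146 at 12 h, against 759 and 469 at 0 h (-1.65 ± 0.42, adjusted p = 0.016), and Zfp788 had 89.0 and 25.3, against 166 and 157 (-1.43 ± 0.39, adjusted p = 0.022). Neither pair of times overlapped, in genes chosen by these same values. Without either 0 h array or either 12 h array the call of Zfp704 was lost, with an adjusted p of up to 0.11, and that of Zfp788 was lost without the 0 h or the 12 h array of experiment 2, with one of up to 0.21.

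The rises at 12 h were those of Zfp949 (1.37 ± 0.38, adjusted p = 0.022), Zfp319, Zfp558 (1.10 ± 0.36, 0.047), Zfp513 (0.95 ± 0.23, 0.011) and Zfp429 (0.85 ± 0.28, 0.048). Zfp558 peaked at this time, with 233 and 264 at 12 h, against 102 and 112 at 0 h, and had 64.8 and 153 at 24 h. Zfp513 had 1374 and 784 at 12 h, against 589 and 477 at 0 h. Both 12 h arrays were above both 0 h arrays in each of these genes, which were chosen by these same values. None of the 5 rises was called without each of the 12 arrays in turn, and without the experiment as a term 1 was. The number of falls at 12 h was 12 when experiment 1 lost its 0 h array and 7 when experiment 2 did, 20 and 10 when they lost their 12 h arrays, and 52 without either 24 h array. The number of rises lay between 1 and 6, and the 1 came when experiment 1 lost its 0 h array or experiment 2 its 12 h array. Without the experiment as a term 9 members fell and 1 rose, and after quantile normalization 16 fell and 7 rose.

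Set against probe sets of like brightness, the share of members that fell at 12 h was below that of all tested probe sets in each of 5 bins of mean log2(signal + 16). It was 2.44% against 7.21% from 6.4 to 7 (41 members), 11.6% against 15.7% from 7 to 8 (69), 21.4% against 24.2% from 8 to 9 (56), 22.2% against 26.1% from 9 to 10 (36) and 17.6% against 18.7% from 10 up (17). The share that rose was also below that of all in each bin, and the gap was widest in the brightest one, with 0 of 17 members against 18.1% of all probe sets. From 9 to 10 it was 2.78% against 10%. Dim probe sets were called less often in both sets, and 110 of the 219 members had a mean under 8. At 24 h, 12.5% of the members from 8 to 9 fell, against 21.5%, 13.9% from 9 to 10, against 23.1%, and 5.88%, 1 of 17, from 10 up, against 19.5%. Below 8, the share that rose at 24 h was 2.44% from 6.4 to 7, against 1.52%, and 4.35% from 7 to 8, against 4.34%. At 6 h the order of the falls was the other way above a mean of 7, with 2.9% against 1.6% from 7 to 8, 3.57% against 2.55% from 8 to 9, 8.33% against 3.24% from 9 to 10 and 5.88% against 1.55% from 10 up, each on 1 to 3 members. These shares were not tested against each other.

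**Figure D2:**
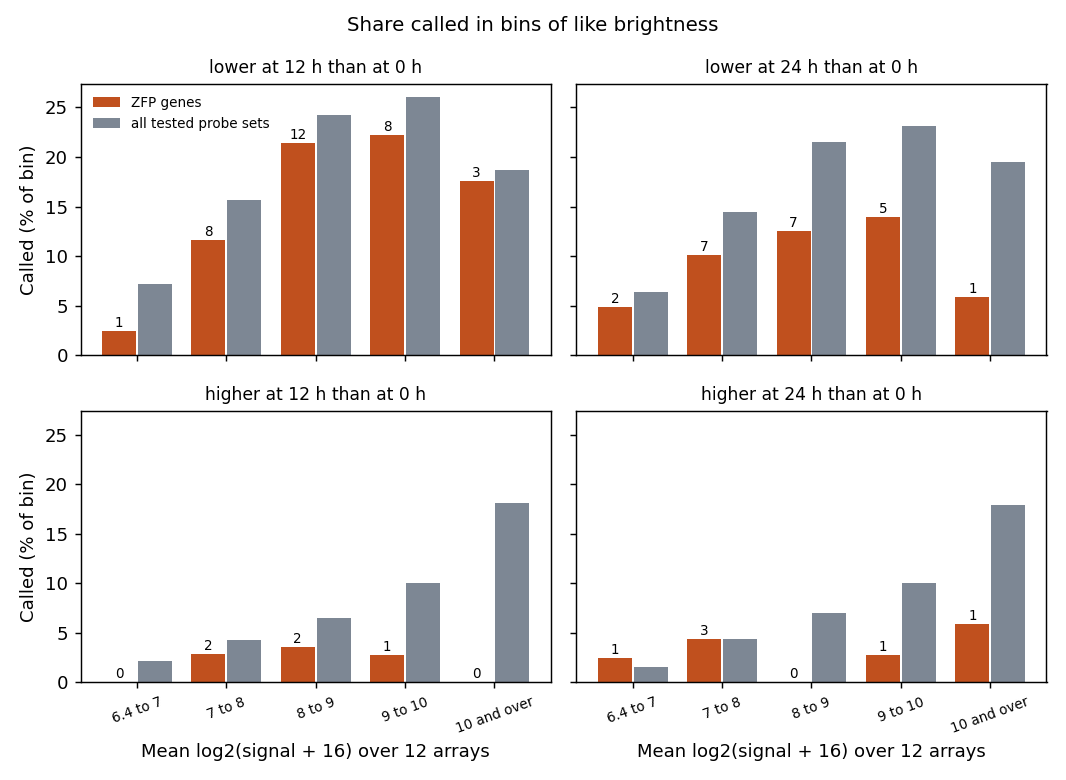
Per cent called lower (top) and higher (bottom) than at 0 h by limma at 12 h (left) and 24 h (right), in bins of the mean log2(signal + 16) over the 12 arrays, for ZFP genes (orange, with the number called above the bar) and all tested probe sets (grey). At 12 h the orange bar is the shorter one in every bin, and in the brightest bin 0 of 17 ZFP genes were higher, against 18.1% of all probe sets.

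At 24 h, 22 members fell and 6 rose, 10% and 2.74% of the 219, against 17.1% lower and 9.0% higher of all probe sets tested. At least 2-fold were 16 of the falls and 4 of the rises. All 28 calls had the same direction in both experiments, which the call again nearly requires. The median member lay at -0.09, against -0.18 over all, and 57.1% of the members were below 0, against 61%. The split between rises and falls moved with the scaling of the arrays: with each array centred on its median 13 members rose and 12 fell, and after quantile normalization 20 rose and 13 fell. Over all probe sets 2382 rose and 2694 fell with centring and 2406 rose and 3246 fell after quantile normalization. The median member stood 0.09 above the median of all probe sets as deposited and with centring, and 0.18 above it after quantile normalization. This shift was seen in experiment 1 alone, at -0.02 against -0.16 over all, while experiment 2 had -0.20 against -0.19. Over 11074 genes, each on its brightest probe set, the median at 24 h was -0.13, with 16.7% lower and 11.2% higher.

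The largest rise of the group was that of Zfp949. Its signals were 95.3, 112, 76.2, 117, 181 and 288 from 0 to 24 h in experiment 1 and 121, 152, 163, 187, 502 and 1051 in experiment 2. The late rise was thus present in both and much the larger in experiment 2, and the difference at 24 h was 2.20 ± 0.38 (SE, adjusted p = 0.0022). It was the only one of the 6 rises to be called without each of the 12 arrays, at 1.66 to 2.74, and it was not called without the experiment as a term. Zfp775 had 244 and 467 at 24 h, against 62.4 and 138 at 0 h (1.69 ± 0.35, adjusted p = 0.0059). Zfp688 had 415 and 402, against 165 and 111 (1.49 ± 0.41, adjusted p = 0.025), and Zfp691 had 115 and 195, against 41.1 and 44.6 (1.498 ± 0.45, adjusted p = 0.034). In each of the 3, chosen by these same values, both 24 h arrays were above both 0 h arrays. The calls of Zfp775 (without the 0 h array of experiment 1, adjusted p = 0.059), Zfp688 and Zfp691 were lost without 1, 3 and 6 of the arrays. The other 2 rises, of Zfp451 (0.71 ± 0.21) and Zfp386 (0.54 ± 0.17), were under 2-fold.

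The 4 largest falls at 24 h were those of Zfp704, Zfp157, Zfp770 and Zfp959, and in all of them the 24 h array of experiment 2 was by far the dimmer one. These values are those of the brightest probe set, and the other probe set of Zfp704 was called higher at 24 h (0.96, adjusted p = 0.04). Zfp704 had 382 in experiment 1 and 66.4 in experiment 2 at 24 h, against 759 and 469 at 0 h (-1.76 ± 0.42, adjusted p = 0.012). Zfp157 had 106 and 17.6, against 196 and 187 (-1.69 ± 0.54, adjusted p = 0.041). Zfp770 had 204 and 31.1, against 395 and 201 (-1.55 ± 0.43, adjusted p = 0.023), so that its 24 h array of experiment 1 lay just above the 0 h array of experiment 2. Zfp959 had 125 and 20.01, against 215 and 173 (-1.55 ± 0.46, adjusted p = 0.031). Without the 24 h array of experiment 2 these differences were at their smallest, -0.86 for Zfp704, -0.64 for Zfp157, -0.80 for Zfp770 and -0.94 for Zfp959, and the calls of Zfp157, Zfp770 and Zfp959 were lost. All 4 calls were lost without either 0 h array. Of the 22 members that fell at 24 h, 19 were dimmer in experiment 2 than in experiment 1 at this time, as were 27 of the 32 that fell at 12 h. These are levels and not ratios to 0 h, and in all 4 genes above experiment 2 was the dimmer one at 0 h too. The number of falling members dimmer at 0 h was not counted, nor was the share over all members or all probe sets tested. These counts thus do not set the falling members apart from the rest.

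Of the falls at 24 h, those of Zfp692, Zfp715 and Zfp800 were kept without each of the 12 arrays. Zfp715 had 643 and 355 at 24 h, against 1420.1 and 1143 at 0 h (-1.38 ± 0.20, adjusted p = 0.00099). This was its lowest time in experiment 2, while in experiment 1 it was slightly lower at 12 h. Zfp692 had 162 and 192, against 429 and 431 (-1.21 ± 0.24, adjusted p = 0.005). The number of falls was 5 when experiment 1 lost its 0 h array and 4 when experiment 2 did, and 39 and 11 when they lost their 24 h arrays. The number of rises was then 1 and 3, and 20 and 10. Without the experiment as a term 5 members fell and 0 rose.

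**Figure D3:**
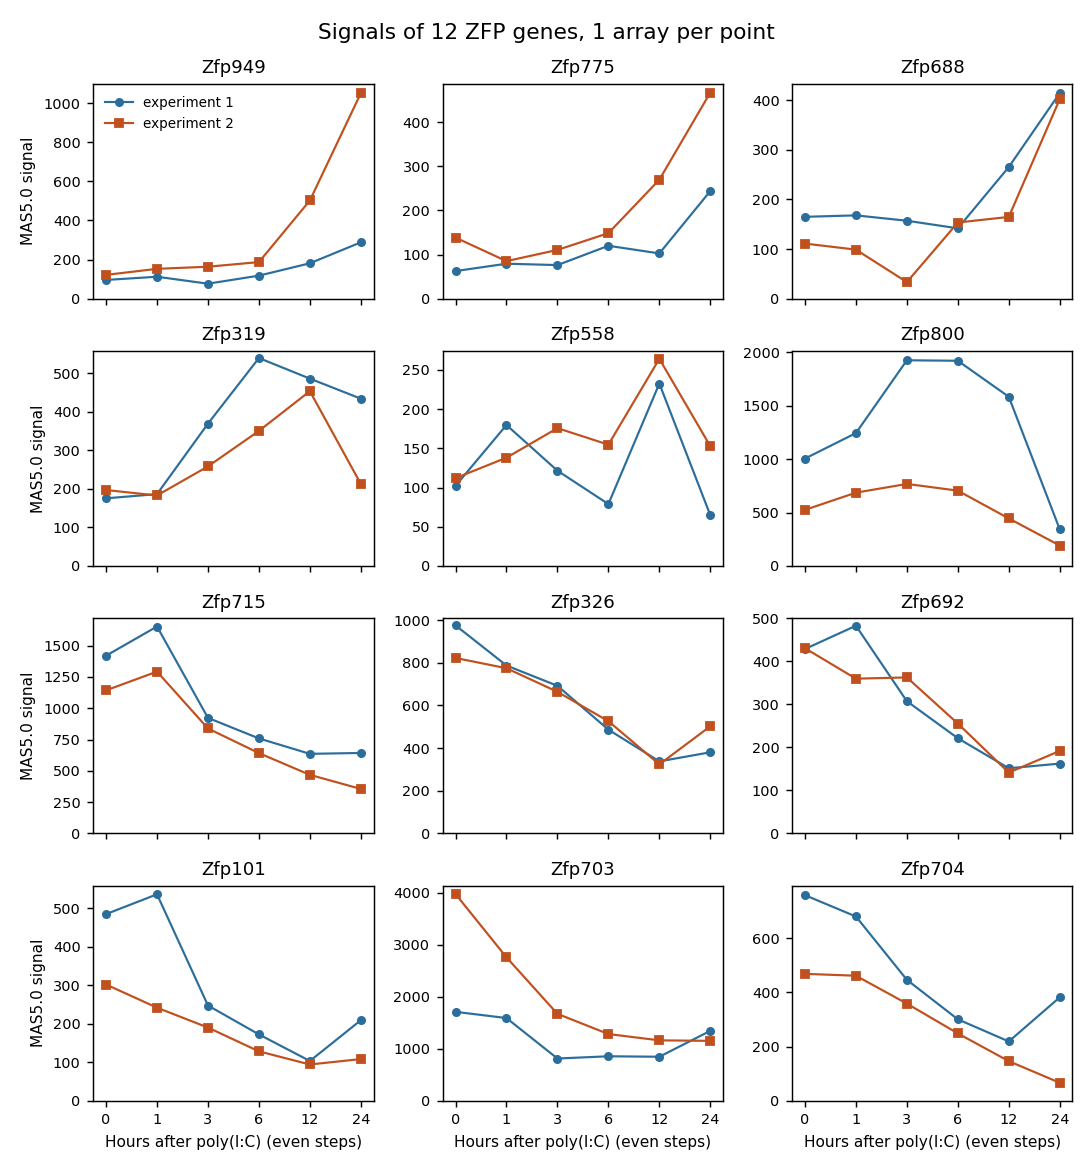
MAS5.0 signal (linear, vertical axes from 0) of 12 ZFP genes from 0 to 24 h after poly(I:C) (horizontal axis, 6 times in even steps), with 1 array per point, experiment 1 as blue circles and experiment 2 as orange squares. Zfp949 ends at 288 and 1051, while Zfp326 and Zfp692 reach their lowest signals at 12 h in both experiments.

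Zfp800, whose human counterpart represses enteroendocrine differentiation and which is named here after its values were seen, had a course of its own. Its signals were 1005, 1243, 1925, 1920.2, 1583 and 343 from 0 to 24 h in experiment 1 and 525, 686, 768, 705, 445 and 191 in experiment 2. No earlier time was called against 0 h (0.67 ± 0.26 at 6 h, adjusted p = 0.17), and 24 h was lower than 0 h (-1.45 ± 0.26, adjusted p = 0.0028) and lower than 12 h (-1.66 ± 0.26, adjusted p = 0.013). Of its 4 other tested probe sets, 1 was also lower at 24 h than at 0 h (-1.42 ± 0.30, adjusted p = 0.0071), and the others, at -0.20, 0.05 and 0.58, were not called. The call against 12 h was lost without the 12 h array of experiment 1 (adjusted p = 0.098).

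Most members were higher at 24 h than at 12 h, few of them past the test. At 24 h, 143 of the 219 were above their 12 h level and the median difference was 0.22, against 0.03 over all probe sets tested, of which 47.6% were below 0. Over 11074 genes, each on its brightest probe set as the members are, the median difference was 0.07. The shift of the members relative to all probe sets was 0.19 as deposited and with centring and 0.16 after quantile normalization. In limma 4 members were higher at 24 h than at 12 h, 1.83%, and 1 was lower, 0.457%, against 1.85% higher and 2.2% lower over all. The 4 were Zfp623 (1.15 ± 0.25, adjusted p = 0.036), Zfp637 (0.91 ± 0.22, 0.049), Zfp758 (0.73 ± 0.17, 0.046) and Zfp386 (0.69 ± 0.17, 0.048), and the 1 was Zfp800. Zfp623 had 371 and 364 at 24 h, against 199.8 and 123 at 12 h. Its 0 h arrays read 322 and 357, so that its level at 24 h was again that of 0 h. It was the 1 member called both lower at 12 h than at 0 h and higher at 24 h than at 12 h (0.457%, against 0.981% of all). Each of these 4 calls was lost without any 1 of 10 or 11 of the 12 arrays, and none was called without the experiment as a term.

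Over the 5 times, 41 members were called lower at least once and 10 higher, 18.7% and 4.57%, against 24.9% and 12.3% of all probe sets tested. None was called in both directions, as were 0.114% of all probe sets. The other 168 members (76.7%, against 63.0% of all) were not called, which does not show that they were constant. Lower at both 12 and 24 h were 15 members (6.85%, against 10.6% of all probe sets tested). At 12 h only there were 17 (7.76% against 7.63%) and at 24 h only 7 (3.2% against 6.46%). Lower at 6, 12 and 24 h were 6 (2.74% against 1.36%). These 6 were Zfp101, Zfp326, Zfp367, Zfp472, Zfp703 and Zfp715, named here after their values were seen. Higher at both 12 and 24 h was Zfp949 alone (0.457%, against 5.91% of all probe sets). The differences between these sets of times were not tested.

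**Figure D4:**
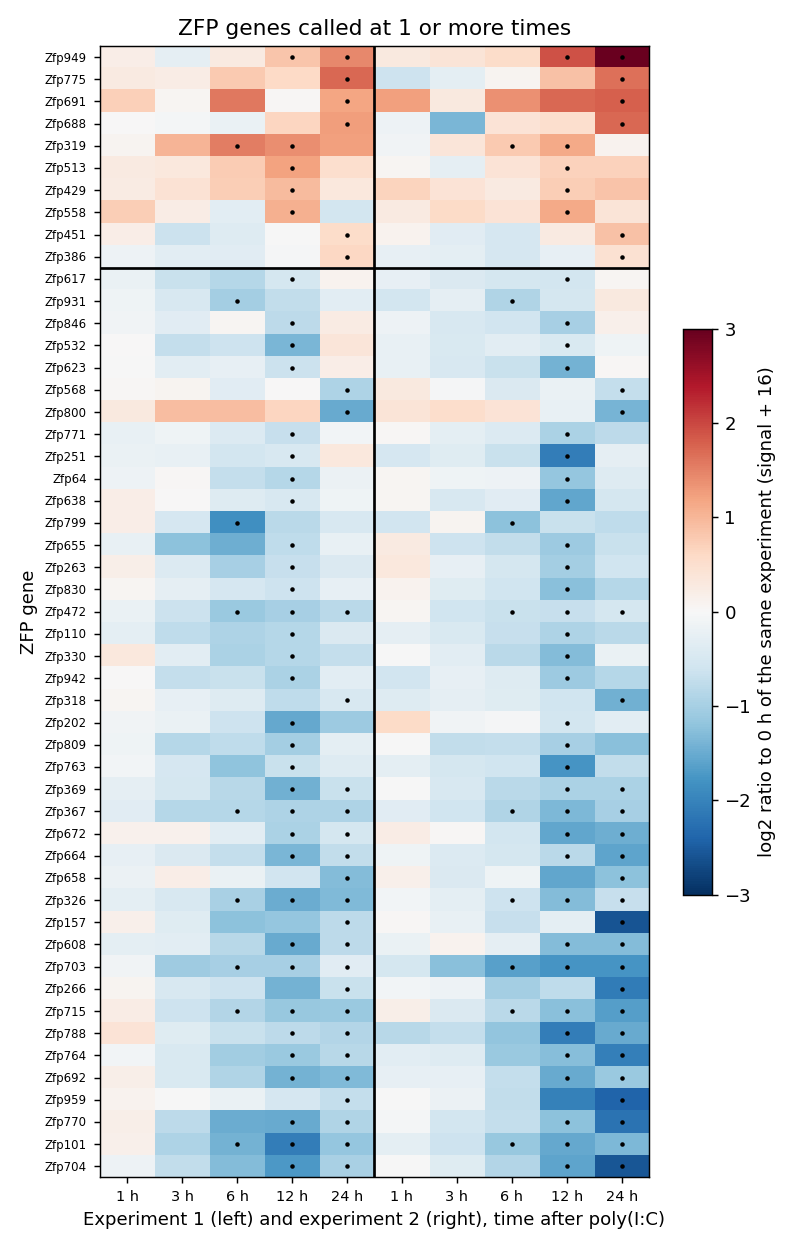
Log2 ratio of signal + 16 to that of the experiment's own 0 h array (colour, red above and blue below 0) for the 51 ZFP genes called at 1 or more times (rows), at 5 times in experiment 1 (left) and experiment 2 (right). Dots mark the times called by limma over both experiments, the 10 genes called higher stand above the black line and the 41 called lower below it, and Zfp949 at 24 h in experiment 2 is the darkest red cell.

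The study asked which profiles repeat between its experiments, with limits on the fold change, the Euclidean distance and the correlation of the profiles from 3 to 24 h. Recomputed from the signal ratios, 30 members changed at least 2-fold in both experiments, 13.7% of the 219, against 23.1% of all probe sets tested. Within the limits of 1.4 on the distance and 0.76 on the correlation, 8 members remained, 3.65%, against 9.32% of all. These were Zfp1, Zfp101, Zfp326, Zfp558, Zfp692, Zfp715, Zfp775 and Zfp800. Zfp692 had the closest profiles of them, with a distance of 0.37 and a correlation of 0.97, and Zfp1, with 1.35 and 0.84, is the only one of the 8 that limma did not call at any time. Zfp472, the member that the study names, was not among them, as in these recomputed ratios it did not reach 2-fold in both experiments and its correlation was 0.67. The study itself lists Zfp472 in a cluster of its 2-fold filtered genes, so it passed the study's own filter. That filter used log ratios and change p-values reported by the array facility, which were not used here. The cause of the different outcome was not tested. At the 4-fold limit no member passed the recomputed filter, against 1.63% of all probe sets.

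By role, 7 members work on RNA and ribosomes, and their calls were all falls, of Zfp326 at 6, 12 and 24 h and of Zfp638 at 12 h. That is 14.3% of the 7 at 6 h, 28.6% at 12 h and 14.3% at 24 h, each on 1 or 2 genes, against 1.9%, 18.3% and 17.1% lower of all probe sets tested. Zfp638, an RNA-binding protein that also helps silence unintegrated retroviral DNA, had 481 and 199 at 12 h, against 674 and 613 at 0 h (-1.01 ± 0.27, adjusted p = 0.02). That call was lost without either 0 h array or without the 12 h array of experiment 2, and the difference was then as small as -0.58. Zfp622, which takes part in late maturation of the large ribosomal subunit, had 2528 to 5446 over the 12 arrays and a difference of 0.26 ± 0.26 at 24 h. In Zfp593, whose yeast counterpart serves the same subunit, the experiments went opposite ways at 24 h, with 522 in experiment 1 and 1849.9 in experiment 2, against 834 and 904 at 0 h (0.18 ± 0.38). Zfp598, the ubiquitin ligase that marks collided ribosomes, gave 0.09 ± 0.22. Zfp346, a protein that binds double-stranded RNA, the form that poly(I:C) has, gave -0.20 ± 0.27 at 12 h and 0.19 ± 0.27 at 24 h. Zfp106, an RNA-binding protein needed in motor neurons, gave -0.03 ± 0.17 at 24 h.

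Among the 3 members that attach ubiquitin or SUMO, Zfp91, Zfp451 and Zfp598, the only call on the brightest probe set was the rise of Zfp451 at 24 h. That is 33.3% of the 3, on 1 gene, against 9.0% higher of all probe sets tested. Other probe sets of Zfp451 and Zfp91 were called at that time too, those of Zfp451 lower and those of Zfp91 in both directions. Of the 7 genes listed for retroelement and chromatin silencing, Zfp57 and Zfp708 were below the level minimum and are no members. Of the other 5, 20% were lower at 12 h and 20% at 24 h, 1 gene each time, against 18.3% and 17.1% of all probe sets tested. Among the 5 members, Zfp809, which brings TRIM28 to the primer binding site of murine leukaemia virus, had 218 and 167 at 12 h, against 457 and 349 at 0 h (-1.004 ± 0.29, adjusted p = 0.028). Zfp568, which silences a placental Igf2 promoter, had 279 and 263 at 24 h, against 548 and 445 at 0 h (-0.83 ± 0.21, adjusted p = 0.015). Without either 0 h array both calls were lost, that of Zfp809 without either 12 h array too. Zfp932, which acts on endogenous retroviruses in mouse cells, lay at -0.95 ± 0.43 at 24 h, Zfp644, which works with the methyltransferase G9a, at -0.59 ± 0.24 and Zfp217, an oncogene product in human tumours, at -0.27 ± 0.30, and none of these 3 was called.

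Of the 3 members of cell division, Zfp367 fell at 6, 12 and 24 h and Zfp830 at 12 h. That is 33.3%, 66.7% and 33.3% of the 3, each on 1 or 2 genes, against 1.9%, 18.3% and 17.1% lower of all probe sets tested. Zfp367 had 362 and 273 at 12 h, against 706 and 717 at 0 h (-1.14 ± 0.21, adjusted p = 0.0034). Zfp830, which mouse embryos need for cell cycle progression, had 481 and 304 at 12 h, against 754 and 745 at 0 h (-0.94 ± 0.23, adjusted p = 0.013), a call lost without the 0 h or the 12 h array of experiment 2. Zfp207 was not called (-0.35 ± 0.17 at 24 h, adjusted p = 0.15). Of the 6 tested transcription factors with a studied role, Zfp703 alone was called (16.7% lower at each of 6, 12 and 24 h, on 1 gene). Zfp148, Zfp281, Zfp384, Zfp335 and Zfp410 lay between -0.40 and 0.06 at 12 h, with standard errors of 0.16 to 0.27. Zfp410, known for switching on the single target Chd4, had 761 and 849 at 24 h, against 753 and 799.98 at 0 h, and Chd4 had 563 and 258, against 641 and 621 (-0.70 ± 0.29, adjusted p = 0.099).

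Of the 17 genes of the KRAB co-repressor machinery, which are no members, 7 fell and 1 rose at 12 h, and the numbers were the same at 24 h (41.2% and 5.88%). Of all probe sets tested, 18.3% were lower and 9.09% higher at 12 h, and 17.1% and 9.0% at 24 h. With means from 8 to 9, 9 to 10 and 10 up, 24.2%, 26.1% and 18.7% of all were lower at 12 h. The list was picked by hand, and the shares were not tested against each other. Trim28, the co-repressor itself, had 1351 and 955 at 12 h, against 2613 and 2727 at 0 h (-1.22 ± 0.19, adjusted p = 0.0014), and 1876 and 1283 at 24 h (-0.78 ± 0.19, adjusted p = 0.014). Uhrf1, which reads methylated DNA at replication, had 8.33 and 59.7 at 24 h, against 369.7 and 511 at 0 h (-3.39 ± 0.45, adjusted p = 0.00058). Cbx5, a heterochromatin protein, had 223 and 144, against 644 and 685 (-1.79 ± 0.28, adjusted p = 0.0013). The histone deacetylases parted at 12 h: Hdac2 had 446 and 389, against 1353 and 1147 at 0 h (-1.54 ± 0.20, adjusted p = 0.00046), and Hdac1 had 7965 and 4739, against 3472 and 2739.6 (0.99 ± 0.20, adjusted p = 0.0052). Morc2a, Smarcad1 and Mphosph8 fell at 12 h too. At 24 h Pphln1, Morc2a, Hdac2 and Smarcad1 fell, and Atf7ip, a partner of the methyltransferase SETDB1, was the 1 that rose (1.01 ± 0.21, adjusted p = 0.0059). Setdb1 itself was not called, at -0.59 ± 0.23 at 12 h. The median of the 17 was -0.66 at 12 h and -0.69 at 24 h, against -0.22 and -0.18 over all probe sets tested.

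The other zinc finger families are given beside the shares of all probe sets tested, 18.3% lower and 9.09% higher at 12 h and 17.1% lower and 9.0% higher at 24 h. Of 30 tested Zbtb genes, which pair fingers with a BTB domain, 3 fell (10%) and 1 rose at 12 h, while at 24 h there were 4 falls (13.3%) and 2 rises. Of 12 Zscan and Zkscan genes, which carry a SCAN domain, 1 fell at 12 h (8.33%) and 2 at 24 h (16.7%). Of 14 Klf genes, the Krüppel-like factors, 1 rose and 3 fell at 12 h (21.4% lower), and 2 fell at 24 h (14.3%), where their median was -0.68. The medians of these families at 12 h lay between -0.14 and -0.11, against -0.22 for the 219 ZFP genes.

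Where a gene has several probe sets, they did not always give the same answer. Of the 70 such members, 23 had at least 1 probe set called at 12 h and 3 had all of theirs called the same way, and at 24 h these numbers were 15 and 1. In 3 members, probe sets were called in opposite directions at 24 h. Zfp451, a SUMO ligase, rose on its brightest probe set (0.71 ± 0.21, adjusted p = 0.029) and fell on 2 others (-1.24 ± 0.23 and -1.51 ± 0.31, adjusted p = 0.0036 and 0.0059), with 2 more at -0.83 and -0.59 not called. Zfp704 fell on its brightest probe set (-1.76 ± 0.42, adjusted p = 0.012) and rose on the other (0.96 ± 0.30, adjusted p = 0.04). Zfp91, a ubiquitin ligase of the NF-κB kinase NIK, lay at -0.20 ± 0.21 on its brightest probe set, at 0.81 ± 0.26 on a second (adjusted p = 0.044) and at -1.07 ± 0.35 on another (adjusted p = 0.049). The direction of these 3 genes thus rests on the probe set chosen. Counted by any of their probe sets, 41 members fell and 6 rose at 12 h, and 29 fell and 9 rose at 24 h.

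**Figure D5:**
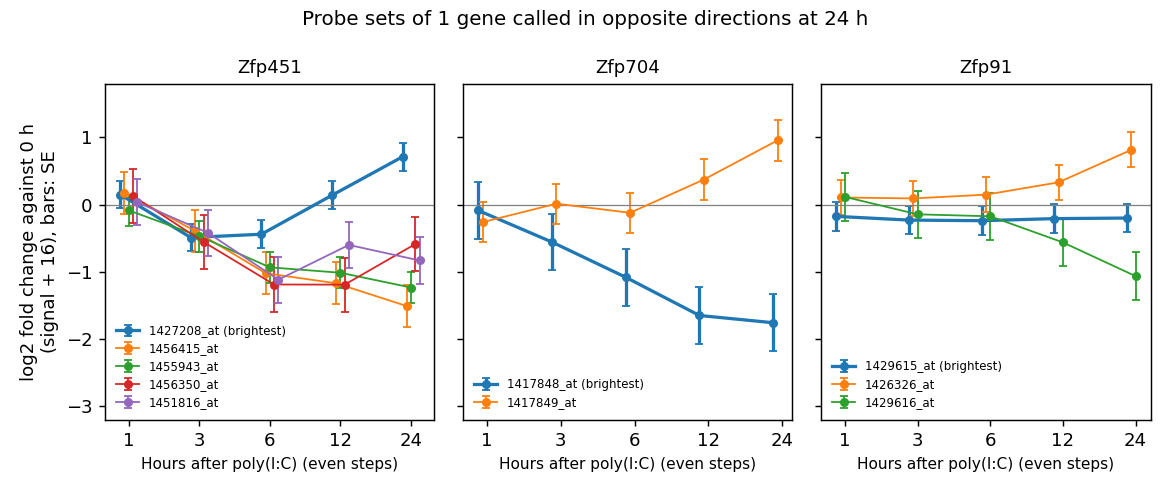
Log2 difference from 0 h (of signal + 16, vertical axis, bars the standard error from limma) at 1, 3, 6, 12 and 24 h (horizontal axis, even steps) for each tested probe set of Zfp451, Zfp704 and Zfp91, with the thick line the brightest. At 24 h the brightest probe set of Zfp451 stands at 0.71 and 2 others at -1.24 and -1.51, and those of Zfp704 at -1.76 and 0.96.

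ZFP genes lie in clusters, and 51 of the members are on chromosome 7, 32 on chromosome 17, 18 on chromosome 8 and 17 on chromosome 13 in the RefSeq annotation. Of the 51 on chromosome 7, 5 fell at 12 h and 5 at 24 h (9.8% each), and of the 32 on chromosome 17, 4 and 4 (12.5% each), against 14.6% and 10% of all members and 18.3% and 17.1% of all probe sets tested. There were 47 pairs of members with no other protein-coding gene between their starts, which take in 77 members. At 12 h neither gene was called in 34 of these pairs, 1 gene was called in 12 and both in 1, and at 24 h these numbers were 40, 6 and 1. The 1 pair was the same at both times, Zfp692 and Zfp672 on chromosome 11, whose start windows stand above. Zfp672 had 148 and 74.1 at 12 h, against 302 and 248 at 0 h (-1.25 ± 0.30, adjusted p = 0.012), and 206 and 80.2 at 24 h (-0.99 ± 0.30, adjusted p = 0.034). The 12 h call of Zfp672 was lost without the 0 h or the 12 h array of experiment 2, with an adjusted p of up to 0.11, and its 24 h call without any 1 of 7 arrays.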

How the data were processed

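The arrays were Affymetrix Mouse 430 2.0. The deposited intensity values are linear MAS5.0 signals that the authors obtained from a core facility, which normalized each experiment on its own. Each array has a mean near 500 without its top and bottom 2% (495.8 to 497.6). Controls were left out, and of 45037 probe sets 34945 have 1 gene symbol in the platform annotation, 932 several and 9160 are unnamed here. All 219 members kept their symbol in the RefSeq table (GRCm38.p6).

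The model of log2(signal + 16) used limma 3.58.1 under R 4.3.3 (time and experiment, all 12 arrays, eBayes with trend, 5 residual and 5.25 prior degrees of freedom), on the 22722 probe sets with a mean of at least 6.4, which takes in every member. Every p is limma's, adjusted by Benjamini-Hochberg over all of them. The experiment term is the replicate block, taken from the methods, which state that the experiments were run apart. Deviations from the mean of the time correlated within an experiment at 0.25 to 0.65 (median 0.57) for the 15 pairs of times, taken over probe sets, which are no independent replicates. The number of arrays limits the precision. Counts, bins, motifs and figures used Python 3.11.15 with pandas 2.3.3, numpy 2.4.6 and matplotlib 3.10.9.

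Named genes are, at each time, the 4 largest rises and falls among those called, the 5 brightest, those next to the level minimum, the role lists, a member the study names, members with opposite probe sets and the co-repressor list. The members and lists were chosen with earlier results of these data known. The authors' change calls and protein sequences were not used here. Alternatives tried were pseudocounts of 1 and 64, no filter and a minimum of 8, median centring, quantile normalization, no replicate block, no trend, only the 4 arrays compared, other probe sets of a member, symbols of the RefSeq table, a 4-fold limit and each array left out.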

Additional observations from a re-analysis of the deposited data

How the results depend on the processing

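With n = 2 mice at each time, the counts of calls depended on single arrays and settings. On the brightest probe set, none of the 64 calls of named members reversed in a fit without 1 array or under another pseudocount, filter, scaling, block, trend or choice of arrays. These calls were picked from the same arrays. Changing the filter, block, trend or choice of arrays leaves the differences as they are, so the lack of reversals is no separate support. Of the 17 calls of genes with another tested probe set, 7 had 1 or more of these on the other side of 0, called in 2 cases (Zfp704 and Zfp451 at 24 h). The 64 kept their side of the threshold in 498 of 768 fits that left out 1 array and in 405 of 556 values under other settings. Leaving out each array, the falls numbered 0 to 1 at 3 h, 0 to 30 at 6 h, 7 to 52 at 12 h and 4 to 39 at 24 h, and the rises 0 to 2 at 6 h, 1 to 6 at 12 h and 1 to 20 at 24 h, with 0 of either at 1 h and 0 rises at 3 h. From 12 to 24 h the rises numbered 0 to 17 and the falls 0 to 10.

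Without the replicate block, no member was called at 6 h or between 12 and 24 h (0), 9 fell and 1 rose at 12 h, and 5 fell and 0 rose at 24 h. Of all probe sets tested, 347 rose and 43 fell at 6 h in that fit, and 0 were called between 12 and 24 h. In the fit of 4 arrays, 2 rose and 14 fell at 3 h, 3 rose and 27 fell at 6 h, 3 rose and 4 fell at 24 h and 0 rose between 12 and 24 h. With no filter on the mean, which tests more probe sets, 0 rose and 1 fell at 6 h, 3 rose at 12 h, 3 rose and 14 fell at 24 h, and 0 rose between 12 and 24 h. Without the trend, 0 rose and 3 fell at 6 h and 0 rose between 12 and 24 h. With a minimum of 8, 3 members rose at 12 h. With median centring, 4 fell at 6 h, 13 rose and 12 fell at 24 h and 1 rose between 12 and 24 h. After quantile normalization, 3 fell at 6 h, 16 fell at 12 h, 20 rose and 13 fell at 24 h and 2 rose between 12 and 24 h. At a 4-fold limit, 0 members passed the consistency filter. Counts over all probe sets are not given here for the fits of 4 arrays, with no filter, without the trend or with a minimum of 8.

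Leaving out each array, the median member ranged over -0.22 to -0.13 at 3 h, -0.36 to -0.22 at 6 h, -0.31 to -0.20 at 12 h and -0.19 to -0.013 at 24 h, around -0.09. It moved to -0.25 at 3 h, -0.24 at 6 h and -0.14 at 12 h with centring, and to -0.19 at 6 h, -0.045 at 12 h and 0.13 at 24 h after quantile normalization. At 24 h it was 0.04 with centring, -0.022 with a minimum of 8 and -0.18 with any probe set. With any probe set of a member it was -0.30 at 12 h, and at 6 h it was -0.34 with a pseudocount of 1 and -0.25 with one of 64. The cause of each of these moves was not tested, other than that no filter adjusts over more probe sets. Counts not given here were within 1.5 times the reported one. Dim members have little signal over background, and 110 of 219 had a mean under 8.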
